A study of Mus musculus with 386 samples.

Results

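The respiratory chain genes of the nucleus were followed in single germ cells of the mouse ovary from E17.5, an embryonic day, through P2.5 to P6.5, days after birth. Members were the count-table rows whose symbol starts with Nduf, Uqcr, Atp5 or Cox4 to Cox8, together with Sdha, Sdhb, Sdhc and Sdhd. Rows with -ps in the symbol were left out. They came to 97 of 54658 gene rows: 39 of complex I, 4 of complex II, 8 of complex III, 21 of complex IV, 17 of complex V and 8 assembly factors of complex I. GENCODE M21 annotates 93 of them as protein-coding and 4 as processed pseudogenes (Ndufs6b, Ndufb4c, Ndufa11b and Cox6c2). Ndufa4 and its paralogue Ndufa4l2 carry complex I names and are given here with complex IV, where Ndufa4 is now placed. Cox7a2l, a factor that joins complexes III and IV, is also given with complex IV.

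Cells were labelled as female germ cells, and Smart-seq2, which copies polyadenylated RNA from 1 cell, gave 386 libraries. E17.5 had 22 of them, P6.5 had 47 and P2.5 had the rest. The labels give no strain, genotype or treatment, and do not say which cells shared an animal. Each stage is therefore 1 sample of many cells, and no difference has a replicate check or a test. Among the P2.5 libraries 24 pairs were near-identical and were summed as 1 cell each, leaving 362 cells in all. Depth was 1.02e+06 to 1.61e+07 gene counts in a library of E17.5, 4.36e+05 to 2.40e+07 in one of P2.5 and 5.71e+06 to 1.58e+07 in one of P6.5.

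Complexes I to IV pass electrons from NADH and succinate to oxygen, and complexes I, III and IV pump protons out of the mitochondrial matrix as they do so. Complex V, the ATP synthase, lets the protons back and makes ATP. Most subunits come from nuclear genes and are imported, while a core set is encoded by mitochondrial DNA. Complex II is the exception, since the nucleus encodes all of it. Oocytes are known to rely on mitochondrial oxidation of pyruvate and to stock large numbers of mitochondria as they grow.

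The germ cell label was checked against Ddx4, Dazl, Dppa3, Mael, Taf4b and Sycp3. Their summed level per cell was at least 2002 CPM (counts-per-million of gene counts) at P2.5 and at least 3636 CPM at P6.5. At E17.5 it was 1175 to 5294 CPM in 18 libraries and 246.6 to 705 CPM in the other 4 (numbers 8, 10, 15 and 16), which go against their label. Summed markers of mast, erythroid and granulosa cells were highest at E17.5. The 5 mast cell markers summed to 0 to 27.7 CPM per cell at P2.5 and 0 to 111618 CPM at E17.5, and 5 of 5 were lower by 2-fold or more at P2.5. The 5 erythroid markers summed to 0 to 2513 CPM at P2.5 and 214.1 to 5824 CPM at E17.5, with 4 of 4 measured ones lower. The 10 granulosa markers summed to 2.30 to 1107 CPM at P2.5 and 0.156 to 1959 CPM at E17.5, with 8 of 9 measured ones lower (2 of 8 against E17.5 libraries 1 to 10 alone). Of the stroma markers 2 of 4 measured ones were higher by 2-fold or more at P2.5 and 1 lower, and the median cell had 12.4 CPM at P2.5 and 8.07 CPM at E17.5. Such markers were not confined to the 4 libraries, since in the other 18 mast cell markers reached 13305 CPM and granulosa markers 1959 CPM. The part of these cells in the ratios was not tested beyond leaving out the 4 libraries, whose summed levels overlapped those of the other 18 for each of complexes I to V.

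The member that stood farthest apart was Cox4i2, so its coding sequence is shown beside that of its paralogue Cox4i1 to show how far reads can tell them apart. Both encode the largest nuclear subunit of complex IV, and Cox4i2 is known as the isoform of the lung and of low oxygen. The 2 coding sequences matched at 69.6% of 483 aligned bases, with no identical run longer than 14 bases, against reads of 150 bases. The stretch below is the first of 90 aligned bases without a gap, from Cox4i2 (chr2:152754173-152765037, plus strand, GRCm38) and Cox4i1 (chr8:120668222-120674207, plus strand), with the 24 differing bases in capitals.
Cox4i2: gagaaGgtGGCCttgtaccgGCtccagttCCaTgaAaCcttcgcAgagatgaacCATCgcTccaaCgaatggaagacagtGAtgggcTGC
Cox4i1: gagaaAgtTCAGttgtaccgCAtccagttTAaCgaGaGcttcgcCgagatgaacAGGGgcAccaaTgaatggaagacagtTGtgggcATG
A second pair, the testis isoform Cox6b2 (chr7:4751792-4753094, minus strand) and the general isoform Cox6b1 (chr7:30616861-30626151, minus strand), matched at 64.9% of aligned bases. Their stretch of 90 bases was chosen in the same way, with the 25 differing bases in capitals.
Cox6b2: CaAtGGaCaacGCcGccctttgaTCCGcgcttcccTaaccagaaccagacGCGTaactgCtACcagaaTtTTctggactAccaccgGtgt
Cox6b1: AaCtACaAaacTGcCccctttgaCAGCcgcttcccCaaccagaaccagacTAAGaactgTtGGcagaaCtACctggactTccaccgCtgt

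Promoters of respiratory genes are known for sites of the transcription factor NRF1 (nuclear respiratory factor 1), and windows of 300 bases from RefSeq (GRCm38.p6, 250 before the start and 50 after it) were found for 74 of the 97 members. The NRF1 letters GCATGCGC, searched on both strands like the other motifs, were in 12 of them (16.2%) and in 2.80% of 27025 promoter windows of all genes. The letters CCGGAAG, an ETS-type motif, were in 17 members (22.97%) and 9.12% of all windows. AAGATGGCG, a YY1-type motif, was in 7 members (9.46%), 5 of them of complex I, and in 1.49% of all windows. TATAAA was in 7 members (9.46%) and 14.2% of all windows. Of the windows with the NRF1 letters upstream of the start, 5 are shown as stretches of 60 bases, in which matches on both strands overlap and are in capitals. They were chosen because 4 of the genes were higher by 2-fold or more at P2.5 than at E17.5 and Atp5g2 was not. Of all 12 members with the NRF1 letters, 6 were that much higher and 6 were not, against 26 higher of the 74 with a window. A match is a description of letters and not a bound site.
Atp5k (chr5:108434414-108434473, minus strand): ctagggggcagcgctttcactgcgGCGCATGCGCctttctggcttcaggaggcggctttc
Cox6a1 (chr5:115349085-115349144, minus strand): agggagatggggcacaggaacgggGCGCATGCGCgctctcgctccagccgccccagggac
Ndufa11 (chr17:56717678-56717737, plus strand): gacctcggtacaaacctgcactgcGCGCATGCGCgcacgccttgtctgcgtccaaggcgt
Ndufaf4 (chr4:24897946-24898005, plus strand): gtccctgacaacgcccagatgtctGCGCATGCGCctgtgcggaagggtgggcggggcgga
Atp5g2 (chr15:102671054-102671113, minus strand): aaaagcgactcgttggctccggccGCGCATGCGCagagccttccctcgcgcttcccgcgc

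Between E17.5 and P2.5, complexes I and IV had the largest shares of members that were higher, while complexes II and V, each summed over its members, stood near their E17.5 share of counts. Cells of a stage were pooled by adding their counts. A gene was measured where 1 of the 2 sums reached 1 CPM and 3 or more cells had a count. Among the 94 measured members, 31 were higher by 2-fold or more at P2.5 (log2 ratio of 1 or more after adding 0.5 CPM) and 1 was lower by 2-fold or more. Over all 17421 measured genes 22.6% were that much higher and 32.4% that much lower. The median log2 ratio was 0.71 over the members and −0.26 over all genes, so the members stood 0.96 above the median gene, and 79 members were above 0. Scaling by TMM, by median-of-ratios and by spike-in counts shifted all ratios up by 0.36, 0.22 and 2.40, so members between −0.36 and 0 turn positive under TMM. With TMM 48 members were that much higher (29.1% of all genes) and 0 lower (25.3%), with median-of-ratios 0 lower (28.1%), and per spike-in count 94 higher (75.5%) and 0 lower (4.16%). The lower members were 2 without mitochondrially encoded counts in the total (32.7% of all genes) and 2 by means over cells (32.2%). Cox6a2, Cox8b and Ndufa11b were below the limits in both comparisons, at 0.781, 0.082 and 0.242 CPM at P2.5.

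By complex, 16 of 38 measured members of complex I were higher by 2-fold or more at P2.5, 0 of 4 of complex II, 2 of 8 of complex III, 8 of 19 of complex IV and 4 of 17 of complex V. Over all measured genes 22.6% were that much higher and 32.4% that much lower. The median log2 ratios of complexes I to V, in order, were 0.89, −0.03, 0.55, 0.94 and 0.49. The assembly factors of complex I had 1 of 8 higher, 1 lower and a median of 0.29. Summed over its members, complex IV held 2.07 times and complex I 1.74 times its E17.5 share of counts, and complex III 1.38 times. Complex II held 0.976 times and complex V 0.987 times, with 12 of the 17 members of complex V above 0 and with Atp5b and Atp5f1 lower, both among its 3 most abundant rows at E17.5.

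**Figure D1:**
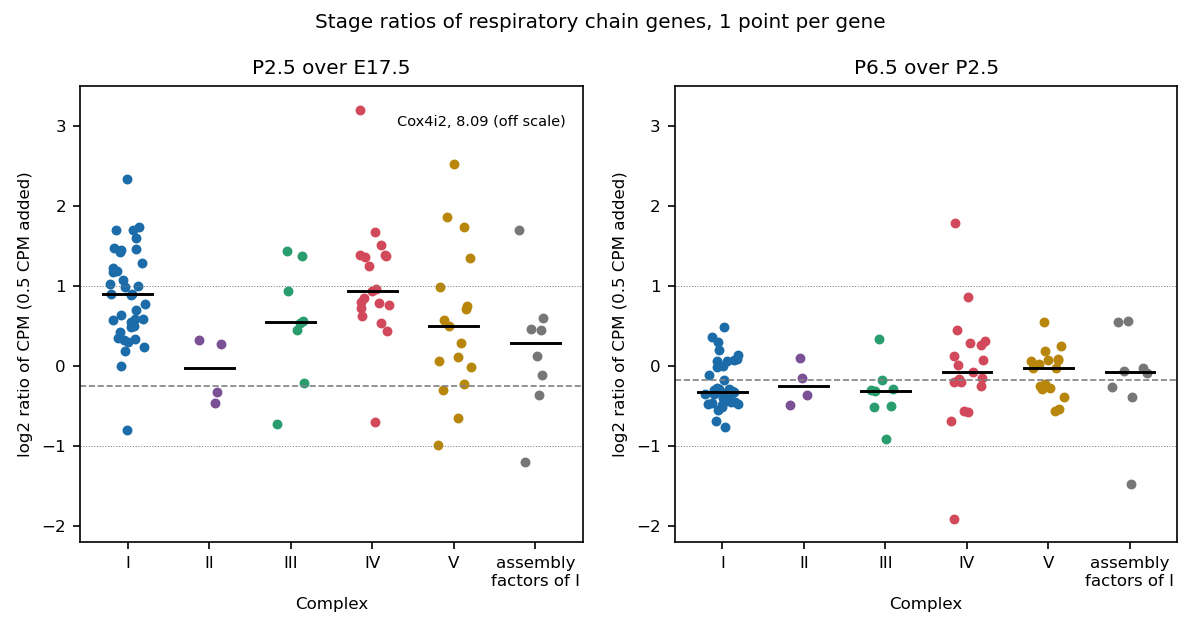
Log2 ratio of each measured member (1 point per gene, 0.5 CPM added) by complex, P2.5 over E17.5 on the left and P6.5 over P2.5 on the right. Black bars are medians, the dashed line is the median of all genes and dotted lines mark 2-fold. On the left 31 points lie at or above the upper dotted line, with Cox4i2 drawn at the top edge (8.09 with 0.5 CPM added), and on the right only Ndufa4l2 does.

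These counts depended on which of the authors' tables was read. FPKM, the other deposited measure, is scaled by gene length as well as depth. By FPKM 17 members were higher by 2-fold or more at P2.5 and 3 lower, against 20.9% and 24.3% of all genes, and the median log2 ratio was 0.38 (0.45 above that of all genes). Of the 31 members higher by counts, 12 were also higher by 2-fold or more by FPKM. By FPKM the medians were 0.60 for complex I, −0.08 for complex II, 0.08 for complex III, 0.44 for complex IV and 0.09 for complex V, with 10 of 38, 0 of 4, 0 of 8, 6 of 19 and 0 of 17 members higher. The values of complex V include Atp5o, whose FPKM row is nearly empty. The tables disagreed most for Atp5o, at 309.1 CPM and 0.0272 FPKM at P2.5, and for Ndufb2 (4.28 CPM and 201.7 FPKM) and Atp5l (24.7 CPM and 615 FPKM). Ndufb2 and Atp5l share 73.3% and 100% of their coding sequence with other annotated genes at 98% identity or more, and Atp5o shares 0%. For Atp5o this leaves out copies under its own symbol, which 2 gene IDs carry. Among the 74 measured members with under 20% of their coding sequence in another gene, 25 were higher by 2-fold or more by counts (median 0.71) and 14 by FPKM (median 0.39).

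The E17.5 libraries that bear on the comparison were then varied. Leaving out the 4 libraries with few germ cell markers, 35 members were higher by 2-fold or more at P2.5 (23.1% of all genes), 28 of them among the 31, and 4 were lower (32.7%). With E17.5 libraries 1 to 10 alone 43 were higher (28.3%), including all 31. With libraries 11 to 22 alone 30 were higher (25.3%), of which 29 were among the 31, and 3 were lower (32.5%). The 2 sets differed in other cell markers. Mast cell markers had a median of 3245 CPM in libraries 1 to 10 and 0.854 CPM in 11 to 22. Granulosa markers had medians of 3.39 and 111.9 CPM in the same order.

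In the matrix arm of complex I, the N module takes electrons from NADH and the Q module passes them to ubiquinone. Of the N module 3 of 10 members were higher by 2-fold or more at P2.5, of the Q module 3 of 6 and of the membrane arm 10 of 21. The share over all measured genes was 22.6%. Ndufa3, an accessory subunit of the membrane arm, had the highest ratio of the complex. It ran from 29.4 to 333 CPM (median 144.7) over the P2.5 cells, against 8.20 to 64.3 CPM (median 21.3) over 22 E17.5 cells. The cells of both stages overlapped, but the P2.5 median lay above the highest E17.5 cell, and the log2 ratio of the sums was 2.36 (95% interval 2.31 to 2.40). Such intervals hold only the error of counting reads. They are too narrow for molecules, because amplified reads carry no molecular identifier.

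Ndufa11, an accessory subunit of the membrane arm that is also known from contacts between complexes, ran from 25.1 to 183.8 CPM (median 72.2) at P2.5, against 6.03 to 48.9 CPM (median 21.7) at E17.5. Its log2 ratio was 1.77 (1.71 to 1.82) by counts but 0.62 by FPKM. Ndufa5 of the Q module had a median of 195.5 CPM at P2.5, against 54.01 CPM at E17.5, and its log2 ratio of 1.71 (1.68 to 1.74) stood beside 1.59 by FPKM. Among the others higher by 2-fold or more by both tables were Ndufb4, Ndufb11, Ndufa13 and Ndufs8, although Ndufb4 shares its whole coding sequence with another annotated gene. The members of complex I higher by counts alone were Ndufv3, Ndufa7, Ndufb8, Ndufb5, Ndufc1, Ndufs6, Ndufs5, Ndufb6 and Ndufa11.

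The subunits that carry the electrons of complex I did not share 1 ratio. Ndufs1, the largest iron-sulphur subunit, had the lowest ratio of the complex, with 7.92 to 261.7 CPM (median 113.7) at P2.5, against 49.7 to 439 CPM (median 182.9) at E17.5. Its log2 ratio was −0.81 (−0.82 to −0.79) by counts and −0.88 by FPKM. Its partner Ndufv2 stood at 287.1 CPM at P2.5 and 288.4 CPM at E17.5 (log2 ratio −0.01, −0.02 to 0.01). Ndufs8, which holds iron-sulphur clusters, stood at 226.1 CPM at P2.5 and 99.4 CPM at E17.5 (1.19, 1.16 to 1.21).

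Of the assembly factors, which help to build complex I and are not part of it, Ndufaf4 was higher and Ndufaf1 lower at P2.5. Ndufaf4 ran from 50.3 to 468 CPM (median 171.2) at P2.5, against 3.33 to 152.2 CPM (median 33.2) at E17.5, a log2 ratio of 1.71 (1.68 to 1.74; 1.75 by FPKM). Ndufaf1 had a median of 31.4 CPM at P2.5, where 3 cells had no count, against 70.1 CPM at E17.5, and its log2 ratio was −1.22 (−1.25 to −1.19; −1.31 by FPKM). It was the 1 member lower by 2-fold or more at P2.5, and was under 2-fold by TMM and median-of-ratios scaling. Leaving out the 4 libraries with few germ cell markers, Ndufs1 (−1.01), Atp5f1 (−1.21) and Cox7b2 (−1.12) were also lower by 2-fold or more, as were Ndufs1 and Cox7b2 against E17.5 libraries 11 to 22. Against libraries 1 to 10 Ndufs1 had −0.50 and Cox7b2 0.02. Ndufaf3 had 0.61 (0.55 to 0.66), with 1.19 leaving out the 4 libraries, 1.38 against E17.5 libraries 1 to 10 and 0.17 against 11 to 22, and Ndufaf7 −0.37 (−0.39 to −0.34).

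Complex II, which also works in the citric acid cycle, had the median ratio nearest 0. Sdha, its flavoprotein, stood at 390.4 CPM at P2.5 and 490.05 CPM at E17.5 (log2 ratio −0.33, −0.34 to −0.32). Sdhb, the iron-sulphur subunit, stood at 366 CPM at P2.5 and 292.5 CPM at E17.5 (0.32, 0.31 to 0.34). Of the membrane anchors, Sdhc had a log2 ratio of 0.27 (0.25 to 0.28) and Sdhd one of −0.47 (−0.48 to −0.45). The cells of the 2 stages overlapped for all 4 genes, and 1 P2.5 cell had only 0.368 CPM of Sdha.

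In complex III the ratios lay on both sides of 0. Uqcrq, a small subunit without a redox centre, ran from 111.8 to 721 CPM (median 278.1) at P2.5, against 33.3 to 243.9 CPM (median 88.2) at E17.5, with a log2 ratio of 1.43 (1.41 to 1.46). Uqcr11, another small subunit, had 1.37 (1.35 to 1.39), but its coding sequence lies wholly in another annotated gene as well, and by FPKM the ratios of Uqcrq and Uqcr11 were 0.72 and 0.41. Uqcrfs1, the Rieske iron-sulphur protein, ran from 40.1 to 346 CPM (median 141.6) at P2.5, against 70.5 to 413 CPM (median 185.2) at E17.5, and had −0.73 (−0.75 to −0.71; −0.65 by FPKM). The core proteins Uqcrc1 and Uqcrc2 had 0.54 (0.53 to 0.55) and −0.22 (−0.23 to −0.20).

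In complex IV, Cox4i2 was nearly absent at E17.5 and had counts in every cell after birth. At E17.5 it had 20 counts, all in libraries 1 to 10 and 18 of them in 1 cell, and 3 of 22 cells had a count. At P2.5 it ran from 13.03 to 569.7 CPM (median 157.2) over all cells, and at P6.5 from 52.2 to 551 CPM (median 164.01) over 47 cells. Every P2.5 cell and every P6.5 cell lay above the highest E17.5 cell, at 2.81 CPM. The log2 ratio of P2.5 over E17.5 was 10.26 (9.63 to 10.97), and that of P6.5 over P2.5 was 0.005 (−0.007 to 0.016).

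The Cox4i2 difference remained at equal depth. With every cell thinned to 400000 counts, 100% of P2.5 cells and 47 of 47 P6.5 cells had a count of it, against 0 of 22 E17.5 cells. The deposited FPKM of Cox4i2 was 0 in each E17.5 cell, 249.2 ± 142.2 at P2.5 and 241.8 ± 119.6 at P6.5 (SD over all cells of the stage). As a share of Cox4i1 and Cox4i2 together, on the per-length FPKM scale, Cox4i2 made up 0%, 8.60% and 11.3% at E17.5, then P2.5, then P6.5. As a share of summed counts it made up 0.0304%, 16.3% and 17.95%. Counts are not scaled by length, but the transcript lengths are close, at 730 bases for Cox4i2 and 745 for Cox4i1. The 2 deposited measures thus disagree on this share, and the cause was not tested. Over P2.5 cells the FPKM share ran from 0.906% to 26.4%.

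Cox4i1 stayed the main form. It ran from 444 to 1501 CPM (median 881) at P2.5, against 252.2 to 739.6 CPM (median 409.8) at E17.5, and its log2 ratio was 0.94 (0.92 to 0.95). Over P2.5 cells Cox4i1 and Cox4i2 had a Pearson correlation of −0.08 and a Spearman correlation of −0.05, where both levels are shares of the same library.

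Cox6b2, known from testis and sperm, was the next highest of complex IV. It ran from 7.68 to 217.5 CPM (median 73.1) at P2.5, against 3.055 to 67.2 CPM (median 12.5) at E17.5, and its log2 ratio was 1.69 (1.64 to 1.74; 1.32 by FPKM). At P6.5 it ran from 36.1 to 282.7 CPM (median 138.9), a log2 ratio of 0.86 (0.85 to 0.88) over P2.5. On the FPKM scale its share of Cox6b1 and Cox6b2 together was 17.6%, 31.9% and 37.5% at E17.5, then P2.5, then P6.5. Cox6b1 itself had 499.97 FPKM at P2.5 and 439.6 FPKM at E17.5, but 259.5 CPM at P2.5 and 144.2 CPM at E17.5 (log2 ratio 0.85, 0.83 to 0.87), and its log2 ratio was 1.38 leaving out the 4 libraries with few germ cell markers. Across P2.5 cells the 2 Cox6b genes had a Pearson correlation of 0.35.

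**Figure D2:**
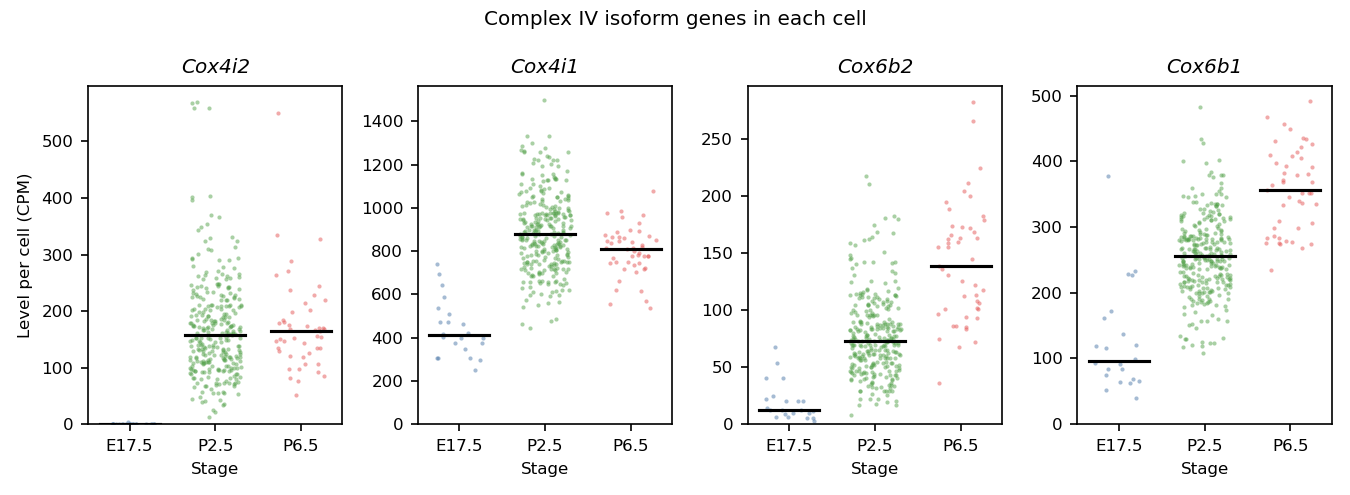
Level of Cox4i2, Cox4i1, Cox6b2 and Cox6b1 in each cell (CPM, 1 point per cell, black bars are medians) at E17.5, then P2.5, then P6.5. Every P2.5 and P6.5 cell lies above all E17.5 cells for Cox4i2, at 13.03 CPM or more against at most 2.81 CPM, while the stages overlap for Cox4i1 and Cox6b2.

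The other isoforms made up small shares. Cox8c, known from testis, was 1.29%, 1.93% and 1.13% of Cox8a and Cox8c by FPKM at E17.5, then P2.5, then P6.5. Its log2 ratio of P2.5 over E17.5 was 1.53 (1.39 to 1.68) by counts and 0.58 by FPKM, and leaving out the 4 libraries with few germ cell markers it was just under 2-fold. Cox7b2, also known from testis, was 15.7%, 3.05% and 0.461% of Cox7b and Cox7b2, and over E17.5 cells its share ran from 0% to 80.3%. The heart and muscle isoforms Cox7a1 and Cox6a2 were at most 2.72% and 0.0712% of their pairs at any stage, and Cox8b had a count in 12 of 362 cells, all at P2.5.

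Among the general subunits of complex IV, 5 more were higher by 2-fold or more by counts at P2.5: Cox7b, Ndufa4, Cox6a1, Cox5b and Cox6c. Cox7b ran from 44.6 to 381 CPM (median 166.6) at P2.5, against 6.61 to 161.2 CPM (median 29.8) at E17.5, a log2 ratio of 1.52 (1.49 to 1.56; 1.71 by FPKM). Cox6a1 had 1.37 (1.35 to 1.39; 1.26 by FPKM), with a P2.5 median of 585 CPM above the highest E17.5 cell, at 347 CPM. Ndufa4 and Cox5b had FPKM ratios of 0.97 each, just under 2-fold, while Cox6c had 1.24 by counts and 0.22 by FPKM. Cox5b shares its whole coding sequence with another annotated gene. Cox7b2 had the lowest ratio of the complex at −0.79 (−0.89 to −0.68) and Cox7c the next at 0.44 (0.42 to 0.45). By FPKM Cox7c had −0.48, and its whole coding sequence is shared with other annotated genes, so its direction is uncertain. The ratio of Cox7b2 depended on the E17.5 libraries, at 0.02 against libraries 1 to 10 and −1.10 against 11 to 22.

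In complex V the ratios differed among members, also within 1 part of the enzyme. Of the catalytic head, the alpha subunit Atp5a1 ran from 219.3 to 1859.8 CPM (median 1266) at P2.5, against 537 to 1948 CPM (median 1028) at E17.5, a log2 ratio of 0.11 (0.10 to 0.11). The beta subunit Atp5b, which holds the catalytic sites, ran from 233.6 to 2106 CPM (median 1085) at P2.5, against 631 to 3644 CPM (median 1297) at E17.5, and had −0.66 (−0.67 to −0.65; −0.53 by FPKM). The rotor subunits Atp5c1 and Atp5d had −0.01 (−0.03 to 0.003) and −0.23 (−0.24 to −0.21). Atp5e, the smallest rotor subunit, stood apart from them at 1.74 (1.72 to 1.76; 0.64 by FPKM), with a median of 407 CPM at P2.5 and 125.8 CPM at E17.5.

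The peripheral stalk holds the head still. Its b subunit, Atp5f1, ran from 140.9 to 871 CPM (median 497) at P2.5, against 442 to 1851 CPM (median 1058) at E17.5, and had the lowest ratio of the complex at −0.99 (−0.99 to −0.98; −1.16 by FPKM). It shares 90.1% of its coding sequence with another annotated gene. Atp5o, at the top of the stalk, had 1.35 (1.33 to 1.37) by counts, and its FPKM values are near 0 at all stages and give no second reading. The annotation has 2 gene IDs with this symbol, and which of them each table's row holds is not known.

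The membrane subunits Atp5k and Atp5l, known for joining ATP synthases in pairs, had the highest ratios by counts. Atp5k ran from 37.1 to 420.1 CPM (median 137.8) at P2.5, against 19.1 to 78.4 CPM (median 36.7) at E17.5, a log2 ratio of 1.87 (1.83 to 1.91) by counts but 0.37 by FPKM. Atp5l had 2.67 (2.55 to 2.80) by counts and 0.32 by FPKM. Atp5j2, also of the membrane part, had 0.99 (0.97 to 1.02) by counts and 0.98 by FPKM.

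The c ring, through which protons pass, has 3 genes for 1 mature protein. By FPKM, Atp5g1, Atp5g2 and Atp5g3 made up 20.8%, 54.4% and 24.8% of the set at E17.5. The shares were 36.9%, 44.5% and 18.6% at P2.5 and 44.5%, 43.1% and 12.4% at P6.5. Atp5g1 and Atp5g2 also share their whole coding sequences with other annotated genes, so these shares are uncertain. Atp5g3, with no such copy, had a log2 ratio by counts of −0.31 (−0.33 to −0.29) for P2.5 over E17.5 and of −0.56 (−0.58 to −0.55) for P6.5 over P2.5. The E17.5 shares include the 4 libraries with few germ cell markers. Leaving these out, the log2 ratios of P2.5 over E17.5 by counts were 1.08 for Atp5g1, 0.08 for Atp5g2 and −0.10 for Atp5g3. With them Atp5g1 had 0.49 and Atp5g2 0.05.

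**Figure D3:**
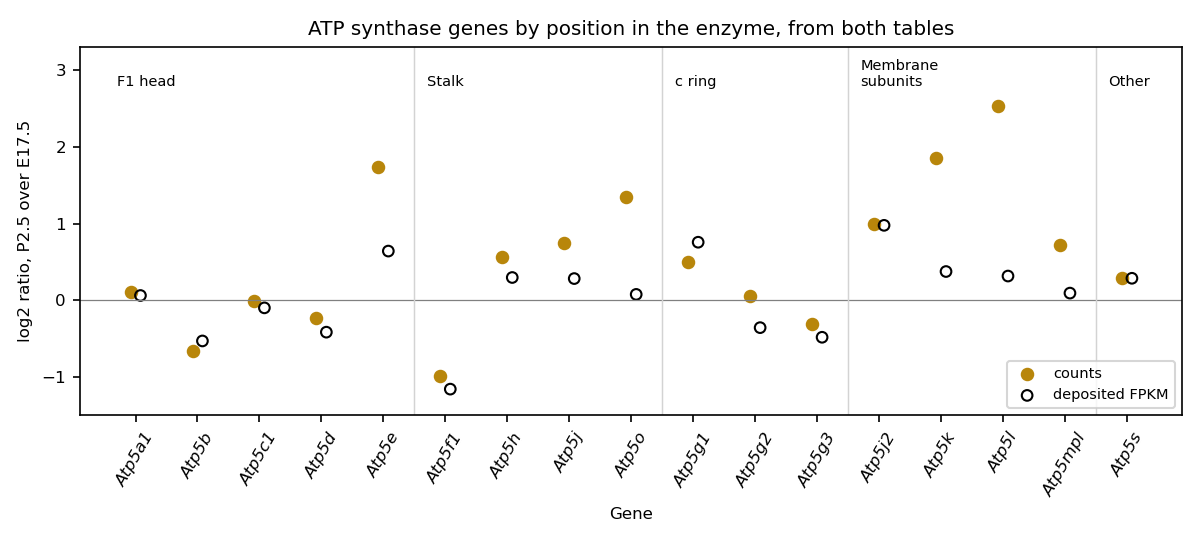
Log2 ratio of P2.5 over E17.5 for the 17 ATP synthase genes, grouped by place in the enzyme, from counts (filled, 0.5 CPM added) and from the deposited FPKM (open, 0.5 FPKM added). The 2 tables differ by less than 0.3 for Atp5a1, Atp5b, Atp5c1, Atp5d and Atp5f1, and by more than 1 for Atp5e, Atp5k and Atp5l. The open point of Atp5o is set by the added 0.5 FPKM, since its FPKM was 0 at E17.5 and 0.0272 at P2.5, and gives no second reading.

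Members with short transcripts had higher ratios than those with long ones. Over 91 protein-coding members the Spearman correlation between transcript length and the log2 ratio of P2.5 over E17.5 was −0.47, against −0.08 over 13924 measured protein-coding genes. The median ratio was 0.80 for 67 members under 1000 bases and 0.27 for 24 longer ones, against 0.11 and −0.16 for all genes in the same classes. The part of length in the members' ratios was not tested. Genes in 1 library share its depth and amplification and are not independent.

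P6.5 cells held nearly the same picture as P2.5 cells. Of 94 measured members, 1 was higher by 2-fold or more at P6.5 and 2 were lower, against 6.9% and 9.3% of 14643 genes. The median log2 ratio was −0.24 over members and −0.18 over all genes. Complex I had a median of −0.33, complex II −0.26, complex III −0.31, complex IV −0.08 and complex V −0.02, so that complexes IV and V stood 0.10 and 0.16 above the median gene and the others up to 0.15 below it. The 3 other scalings shifted these ratios up by 0.24, 0.34 and 2.93. Members higher by 2-fold or more were 2 with TMM (9.75% of all genes), 2 with median-of-ratios (11.7%), 94 per spike-in count (99.1%) and 0 with a filter of 10 CPM (5.86%). Members lower by that much were 0 per spike-in count (0.0137%), 6 by FPKM (6.15%) and 1 with the filter (5.59%).

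Ndufa4l2, a paralogue of Ndufa4 that is known to be induced at low oxygen, was the 1 member higher by 2-fold or more at P6.5. It had a count in 43 of 47 P6.5 cells (median 5.14 CPM, highest 34.9) and in 57.7% of P2.5 cells (median 0.171 CPM, highest 18.6), a log2 ratio of 2.07 (2.00 to 2.14; 1.80 by FPKM). It remained under 1% of Ndufa4 and Ndufa4l2 together by FPKM. Cox7b2 and Ndufaf1 were the 2 lower, with log2 ratios of −2.68 (−2.89 to −2.49) and −1.52 (−1.56 to −1.48).

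Other members near the ends at P6.5 stayed within 2-fold by counts. In complex I these were Ndufa11 at 0.49 (0.48 to 0.51) and Ndufab1 at the top, and Ndufc1 at −0.77 (−0.79 to −0.76) and Ndufv2 at −0.70 (−0.71 to −0.69) at the bottom. In complex III, Uqcrc1 ran from 184.2 to 583 CPM (median 419.5) at P6.5, against 119.02 to 1911 CPM (median 713) at P2.5, with −0.91 (−0.92 to −0.91), while Uqcrh had 0.33 (0.32 to 0.34). In complex II, Sdhb had −0.50 (−0.51 to −0.49) and Sdhd 0.10 (0.09 to 0.11), and in complex V Atp5l had 0.55 (0.53 to 0.58). By FPKM Atp5l had −0.32 and Ndufa11 −0.12, so their direction depended on the table. Ndufc1 (−0.39), Ndufv2 (−0.58), Sdhb (−0.61) and Sdhd (0.04) kept their sign by FPKM.

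Per cell, summed levels of complexes I and IV separated E17.5 from later cells more than those of II and V. Complex IV summed to 1279 to 3459 CPM (median 2314) at E17.5, 2243 to 7956 CPM (median 4963) at P2.5 and 3629 to 5970 CPM (median 4881) at P6.5. Complex I summed to 2097 to 4856 CPM (median 4133), 4021 to 12372 CPM (median 6962) and 4468 to 7117 CPM (median 5883) at the same stages. Complex V summed to 3044 to 9133 CPM (median 5326), 3424 to 8027 CPM (median 5972) and 4603 to 6605 CPM (median 5763). All P6.5 cells lay above all E17.5 cells for complex IV, whereas every stage overlapped every other for complexes II, III and V.

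The spread between cells was smallest at P6.5. The coefficient of variation of all members summed was 19.4%, 16.1% and 7.53% at E17.5, then P2.5, then P6.5. For complex I it was 18.3%, 22.4% and 9.17%, and for complex V 25.5%, 10.9% and 7.21%. The E17.5 spread includes the 4 libraries low in germ cell markers. Thinning cells to 400000 counts gave 22.3% and 8.79% for complex I at P2.5 and P6.5.

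**Figure D4:**
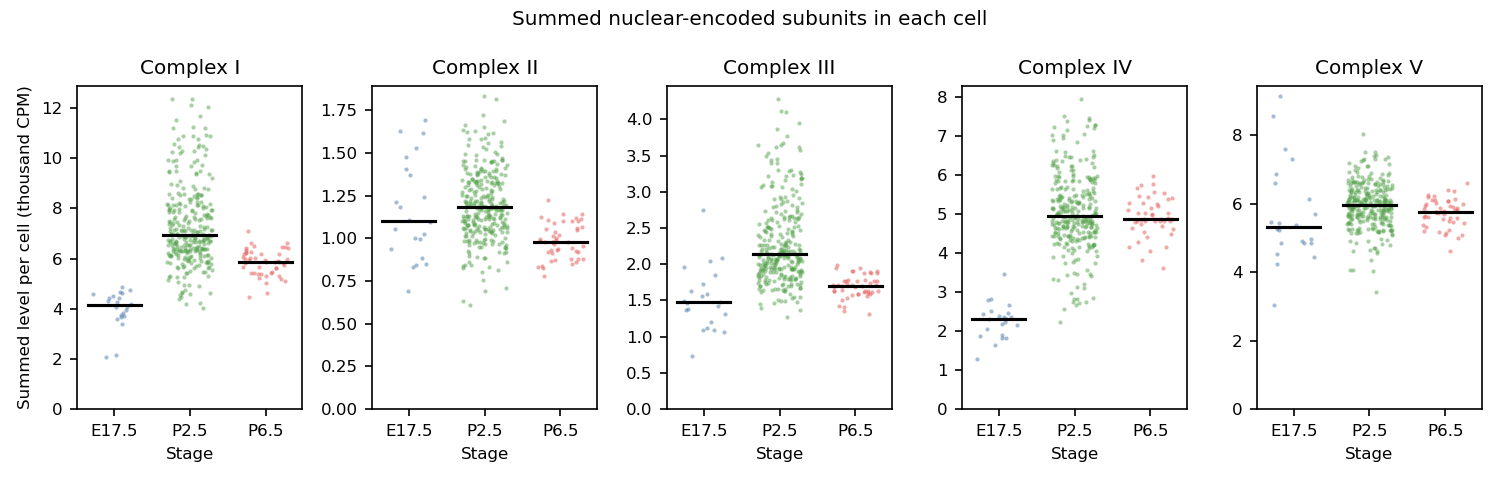
Summed level of the nuclear-encoded subunits of each complex in each cell (1000 CPM, 1 point per cell, black bars are medians) at E17.5, then P2.5, then P6.5. The medians of complex IV are 2314, 4963 and 4881 CPM, and those of complex II are 1101, 1183 and 982 CPM.

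Within P2.5, cells high in complex I were high in complex III. Over all P2.5 cells, summed complexes I and III had a Pearson correlation of 0.93 (Spearman 0.91, and 0.92 by Pearson without the 2 most extreme cells). Complex I had Pearson correlations of 0.79 with complex IV, 0.55 with V and 0.51 with II. Complexes II and IV were related least, at 0.14. All of these are descriptions, since the levels are shares of the same libraries.

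Gene by gene, 85 members with at least 20 CPM at P2.5 had a median pairwise Spearman correlation of 0.28 across P2.5 cells, against 0.01 over all 7474 genes at that level. It was 0.45 within a complex (877 pairs, 595 of them of complex I) and 0.24 between complexes. Within complex I it was 0.51, within IV 0.35, within III 0.26, within II 0.25 and within V 0.18. For members under 1000 bases it was 0.46 (63 genes) and for longer ones 0.15 (22 genes), whereas over all protein-coding genes it was 0.02 in each of those classes.

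Among the members least related to the rest were catalytic subunits. Atp5a1 had a Spearman correlation of −0.36 with the sum of all other members, Atp5b one of −0.27, Sdha −0.16 and Ndufs1 0.05. At the other end were Uqcr11 at 0.86, Ndufs5 at 0.85, Ndufb6 at 0.84, Cox6a1 at 0.83 and Ndufa3 at 0.83, all small accessory subunits. Cox4i2 had 0.14 and Cox6b2 0.13.

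P2.5 cells with more growth transcripts held smaller shares of complexes I, III and IV. The growth list was Zp1, Zp2, Zp3, Gdf9, Bmp15, Nlrp5, Oosp1 and Padi6, egg coat, secreted and stored factors of growing oocytes. Its summed level had Pearson correlations of −0.45 with complex I, −0.40 with IV, −0.38 with III, −0.18 with II and −0.12 with V. Single members differed in sign, with Spearman correlations of 0.52 for Atp5a1, 0.23 for Atp5b, 0.23 for Cox6b2 and −0.54 for Uqcr11. Library depth moved the same way, with Pearson correlations of gene counts per cell of −0.27 with complex I and −0.25 with complex IV, and its part was not tested. The germ cell list went the other way and was more closely related than the growth list. Its summed level had Pearson correlations of 0.65 with complex I, 0.65 with III, 0.46 with IV, 0.38 with II and 0.29 with V.

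**Figure D5:**
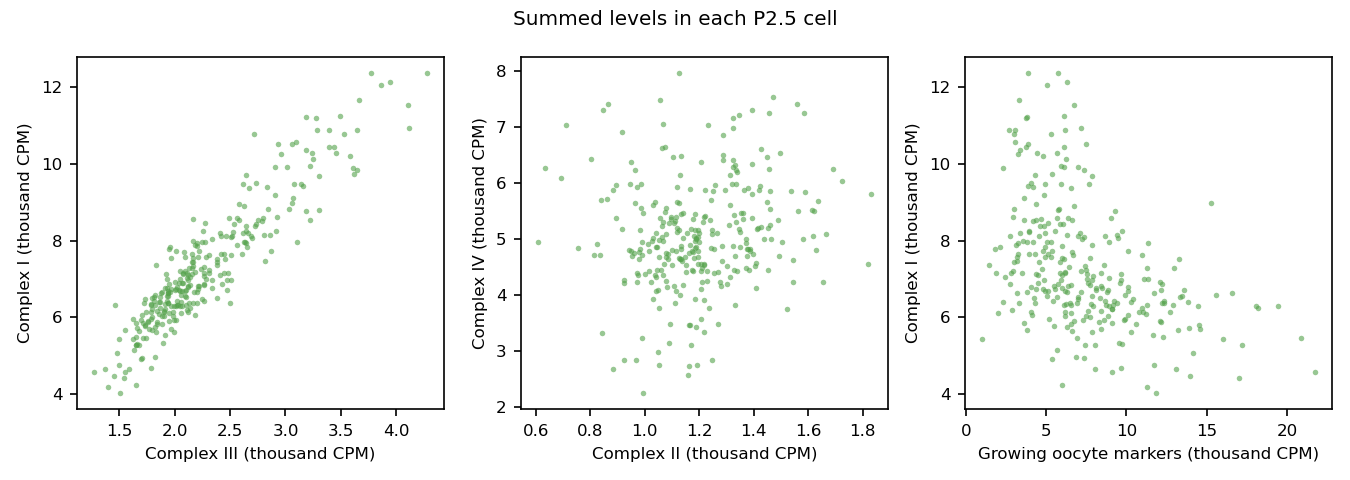
Summed levels in each P2.5 cell (1000 CPM, 1 point per cell): complex I against complex III, complex IV against complex II, and complex I against the growing oocyte list. Pearson correlations are 0.93, 0.14 and −0.45.

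Variation between P2.5 cells was low for these genes. The coefficient of variation had a median of 32.2% over 85 members and 48.9% over 7474 genes. Between 100 and 400 CPM, where levels are alike, it was 31.1% over 57 members and 35.5% over 2273 genes. The least variable members were Atp5a1 (19.9%), Cox4i1 (20.3%) and Atp5f1 (20.3%), and the most variable were Atp5s, Ndufaf1 and Ndufaf6 (64.4%, 58.4% and 58.4%).

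Levels of different members can be set side by side only on the per-length FPKM scale. At P2.5 the highest mean FPKM was that of Cox4i1 at 2649 ± 519 (SD over all P2.5 cells). The highest of complex I was Ndufa7 at 1126, of complex II Sdhb at 375, of complex III Uqcr11 at 1491 and of complex V Atp5e at 1477. The lowest were Ndufa11b at 0.280 in complex I, Sdhd at 125.03 in complex II, Uqcrfs1 at 124.7 in complex III, Cox8b at 0.142 in complex IV and Atp5o, whose row differs between the tables, in complex V. The median over members was 520.4 in complex III, 454 in complex V, 383 in complex IV, 327 in complex I and 184.2 in complex II. Assembly factors of complex I were less abundant, from Ndufaf5 at 17.2 to Ndufaf8 at 65.7.

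The 13 subunits encoded by mitochondrial DNA had a lower median ratio than the nuclear members by counts in both comparisons, but by FPKM only in the later one. Between E17.5 and P2.5, 1 of 11 measured ones was higher by 2-fold or more and 0 were lower, against 22.6% and 32.4% of all genes. Their median log2 ratio was 0.25 by counts, against 0.71 for the nuclear members. By FPKM the medians were 0.41 and 0.38. Between P2.5 and P6.5, 0 were higher and 4 lower, against 6.9% and 9.3% of all genes. Their median was −0.94, against −0.24 for the nuclear members (−0.95 and −0.30 by FPKM). Those of complex IV had medians of −0.30 for P2.5 over E17.5 and −1.35 for P6.5 over P2.5, where the nuclear subunits of complex IV had 0.94 and −0.08. By FPKM the same medians were 0.20 and −1.03 for the mitochondrial and 0.44 and −0.20 for the nuclear subunits. The tables disagreed for single mitochondrial rows. At P2.5 mt-Co2 had 18.6 CPM and 3500 FPKM, beside mt-Co1 at 5985 CPM and 5456 FPKM. The −1.35 is that of mt-Co3, at 21.2 CPM at P2.5 and 8.01 CPM at P6.5. At P2.5 mt-Atp8, below the limits by counts, had 0.081 CPM and 5654 FPKM. Over P2.5 cells the sum of the 13 subunits had Pearson correlations of 0.45 with nuclear complex IV, 0.41 with complex I and 0.03 with complex V.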

How the data were processed

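Libraries of single germ cells gave paired reads of 150 bases, per the labels' protocols. The deposited count table holds raw read counts per gene. The deposited FPKM table holds the authors' values per length of gene and depth. Per the submitters' processing notes, the build was mm10 and the tools were RSEM 1.3.3, HTSeq 0.13.5 and STAR 2.7.10b, without their roles. Not given in the sources used here are the annotation, the strand setting and how reads that map to several genes were handled, so rows with close copies or overlapping genes are uncertain.

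The members, complexes and lists were chosen with earlier results of these data known. Counts of 54658 gene rows, without 92 spike-in rows, were scaled to CPM. P2.5 libraries whose counts differed by a median chi-square per gene under 1.5 were summed, which took 317 libraries to 293 cells (0.686 to 1.03 in 24 pairs, against 2.31 in the next pair and a median of 34.5 in 300 random pairs). Stage sums were compared as P2.5 over E17.5 and P6.5 over P2.5, which share the P2.5 cells. A gene was measured where either sum reached 1 CPM and 3 or more cells had a count. Counts of members and medians use ratios after adding 0.5 CPM. For a named gene the ratio is that of its CPM values, and its 95% interval is exact and Poisson, given the summed count. No test was made, since cells of 1 stage are not replicates, and no doublet caller was run. The ratio and its limits were tested on simulated data. Named were the 2 members at either end per complex and comparison, the highest and lowest by FPKM at P2.5, all isoform sets and Sdh genes, all members past 2-fold, and the end members of each other list. Not every gene the rule names is reported here. Genes named beside these were chosen after their values were seen.

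Coding sequences from GENCODE M21 (GRCm38) were searched against all its transcripts by BLAST for copies of at least 98% identity over at least 75 bases. Transcript length is the median over a gene's protein-coding transcripts. Promoter windows are RefSeq's. The motif letters were set after the matches of longer forms of the NRF1 and YY1 motifs had been seen. Alternatives were TMM scaling (edgeR 4.0.16), median-of-ratios (DESeq2 1.42.0), spike-in scaling, other filters and added values, the FPKM table, means over cells and subsets of E17.5 libraries. Python 3.11.15, numpy 2.4.6, pandas 2.3.3 and scipy 1.17.1 were used.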

Additional observations from a re-analysis of the deposited data

Results flagged for a closer look

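Of the rows left out by the rule, 9 have -ps in the symbol and were set aside on that ground alone. Their annotated gene type was not checked. All of them had counts above the level that 3 counts in the P2.5 sum would give (0.00132 CPM). This is a signal in rows that no comparison used. Ndufb1-ps was the highest, at 62.6 CPM at P2.5, which is near the levels of members such as Ndufb9 and Uqcrb. The 3 rows related to Atp5l followed, Atp5l2-ps at 4 CPM, Atp5l-ps1 at 1.34 CPM and Atp5l-ps2 at 1.31 CPM, beside 24.7 CPM for Atp5l itself. Ndufab1-ps was at 1.62 CPM, Uqcrh-ps2 at 0.192 CPM, Uqcrh-ps1 at 0.146 CPM, Atp5k-ps2 at 0.0781 CPM and Atp5c1-ps at 0.0553 CPM. How reads were shared between these rows and related genes was not tested.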

How the results depend on the processing

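No paired analysis was possible because library numbers only name cells and the comparisons come from no test. For P2.5 over E17.5 the median of 0.71 became 1.07 with TMM scaling, 0.93 with median-of-ratios, 3.11 per spike-in count, 0.38 with FPKM and 0.93 with E17.5 libraries 1 to 10. The 31 higher members became 48 with TMM, 94 per spike-in count and 17 with FPKM. The 1 lower member became 0 with TMM, 0 with median-of-ratios, 0 per spike-in count, 2 without mitochondrially encoded counts, 3 with FPKM, 2 with means over cells, 4 without the 4 libraries and 3 with E17.5 libraries 11 to 22. For P6.5 over P2.5 the median of −0.24 became −0.00271 with TMM, 0.098 with median-of-ratios and 2.69 per spike-in count. The 1 higher member became 2 with TMM, 2 with median-of-ratios, 94 per spike-in count and 0 with a 10 CPM filter, and the 2 lower became 0 per spike-in count, 6 with FPKM and 1 with the filter. Without mitochondrially encoded counts, P2.5 medians per cell were 1215 (II), 2200 (III), 5121 (IV) and 6162 CPM (V). The filter tests fewer genes, and the causes of the other shifts were not tested. The remaining 57 alternative values of this kind stayed within the spread between members or cells, or within 1.5 times the count. For members with under 20% of their coding sequence in another gene, an alternative chosen after seeing the data, the medians were 0.71 and −0.28. The 1 CPM limit left out Cox6a2, Cox8b and Ndufa11b.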

Other observations

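Lists of genes around the respiratory chain had lower medians for P2.5 over E17.5 than the 0.71 of the members, against −0.26 over all genes, of which 22.6% were higher by 2-fold or more and 32.4% lower. Of 34 measured assembly factors outside the members, 9 were higher by 2-fold or more at P2.5 and 3 lower (median 0.19), from Lyrm7, which helps to place the Rieske protein in complex III, at 56.7 CPM at P2.5 and 6.07 CPM at E17.5, to Cox17, a copper carrier for complex IV, at 2.47 and 8.60 CPM in the same order. Of 8 electron carriers and related genes, 2 were higher and 0 lower (median 0.22), and the lowest was Cycs, cytochrome c, at 74.6 CPM at P2.5 and 147.4 CPM at E17.5. Of 19 genes of pyruvate dehydrogenase and the citric acid cycle, 2 were higher and 1 lower (median 0.07), from Sucla2 (log2 ratio 1.24) to Cs, citrate synthase (−1.14).

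Among 13 genes of mitochondrial genome maintenance and biogenesis, 2 were higher and 3 lower at P2.5 (median −0.12). Nrf1, which encodes the factor whose motif was searched in promoters, stood at 166.9 CPM at P2.5 and 52.2 CPM at E17.5 (log2 ratio 1.68, 1.64 to 1.71), and the coactivator Ppargc1a had −3.77 (−3.92 to −3.62). Of 9 ATP and proton carriers, 0 were higher and 2 lower (median −0.58), and Ucp2, an inner membrane carrier, had the lowest ratio at −6.51 (−6.54 to −6.47). Ucp2 is also known from blood cells, and mast and erythroid markers were highest at E17.5. The part of those cells in its level was not tested.

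Between P2.5 and P6.5, 6.9% of all measured genes were higher by 2-fold or more and 9.3% lower. In this comparison the lists above had medians of −0.32 (other assembly factors, 0 higher and 2 lower), −0.31 (electron carriers, 0 and 1), −0.32 (pyruvate and citric acid cycle, 0 and 0), −0.25 (genome maintenance, 0 and 0) and 0.15 (carriers, 0 and 0), against −0.18 over all genes. The end members were Surf1 (0.81) and Foxred1 (−1.25), Etfb (0.84) and Etfdh (−1.13), Dlst (0.47) and Suclg2 (−0.86), Ppargc1b (1.12) and Esrra (−1.29), both under 4 CPM and within 2-fold after adding 0.5 CPM, and Vdac1 (0.95) and Slc25a31 (−0.57).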
